A study of Rattus norvegicus with 30 samples.

Results

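Gldn and Sema7a were the 2 genes described here, out of 9999 gene names in the files and 4363 genes with enough signal to be tested, and both passed that filter. They were chosen by name for their early rise after induction, with the values at 0, 3 and 12 h already known, so the rise over 0 h at 3 and 12 h is given as a description without a test. Rat bone marrow mesenchymal stem cells (BMSCs, stromal cells that can become bone, fat or cartilage cells) were cultured in osteogenic (OS), adipogenic (AD) or chondrogenic (CH) differentiation medium and collected at 3, 12 and 72 h, next to undifferentiated cells at 0 h labelled CON. There were 10 groups of 3 samples and 30 samples in all. The cells came from female Sprague Dawley rats aged 3 weeks, were induced at passage 2, and each sample pooled 3 cultures. The 0 h samples served for every lineage, and no culture kept without induction to the later times was used here, so time in culture and induction cannot be told apart. The labels count the samples as biological replicates but do not tie them to animals, so p-values measure the spread between these samples.

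Gldn encodes gliomedin, a membrane protein with a collagen-like stretch and an olfactomedin domain that is known from Schwann cells. There it is cut from the surface, joins the matrix around the axon and binds the adhesion proteins neurofascin and NrCAM, which gathers sodium channels at nodes of Ranvier. Sema7a encodes a semaphorin held in the membrane by a lipid anchor and known from axon growth and from immune cells. It signals through an integrin whose beta chain is the product of Itgb1, with focal adhesion kinase and MAP kinases behind it, and binds the plexin encoded by Plxnc1.

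Both genes lie on rat chromosome 8, and the 250 bases before each annotated start are shown because the members rose at the same early time point. They are the plus strand of assembly GRCr8 as given by RefSeq, chr8:63575020-63575269 for Gldn and chr8:67244068-67244317 for Sema7a, both upstream of the transcript. Capitals mark the GC box GGGCGG.
Gldn: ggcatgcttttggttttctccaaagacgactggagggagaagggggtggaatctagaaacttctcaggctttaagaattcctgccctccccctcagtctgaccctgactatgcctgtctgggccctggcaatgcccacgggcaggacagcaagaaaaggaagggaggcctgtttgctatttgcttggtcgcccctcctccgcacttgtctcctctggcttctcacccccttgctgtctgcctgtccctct
Sema7a: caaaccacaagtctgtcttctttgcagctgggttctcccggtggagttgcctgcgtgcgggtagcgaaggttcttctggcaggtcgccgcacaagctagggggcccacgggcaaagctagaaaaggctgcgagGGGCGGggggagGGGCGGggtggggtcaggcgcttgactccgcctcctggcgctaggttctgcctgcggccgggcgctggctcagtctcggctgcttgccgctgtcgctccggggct

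Searched on both strands, the Sema7a stretch held the GC box at 2 places, starting 117 and 105 bases before the start, and the Gldn stretch held none. Of 33469 promoter windows of the same length, 30.5% held this motif. Neither stretch held a TATA box (TATAAA, in 12.9% of windows), a CCAAT box (CCAAT, 34.0%), an AP-1 site (TGANTCA, 6.34%) or the short CREB motif (TGACG, 18.2%). The GC content was 56.4% for Gldn and 67.6% for Sema7a, against a median of 51.2% over all windows. A match of letters describes the sequence only and is not a binding site.

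The deposited values were read counts scaled to a common library total (CPM), with no gene length in them, so levels are compared between samples and not between the 2 genes. The totals behind them were 3899609 to 9046719 reads a sample, and 3 reads, taken as the floor of detection, were 0.332 to 0.769 CPM, a limit that covers counting error only. Because the samples are bulk RNA, fewer expressing cells and less RNA per cell cannot be told apart. Of the stromal markers, Thy1 (387 to 8280 CPM) and Cd44 (258 to 2014 CPM) were high in every sample, whereas Vim reached 1.58 CPM at most, Eng 0.663, Pdgfra 1.82 and Pdgfrb 1.77, and Actb, normally abundant in every cell, reached 5.39. A gene is named as called where its limma difference on log2(CPM + 1) was at least 1 in size with a Benjamini-Hochberg adjusted p under 0.05. Thy1 was called lower than at 0 h at 72 h of osteogenesis, adipogenesis and chondrogenesis (log2 difference -1.12, -4.24 and -1.76, adjusted p = 3.06e-09, 1.04e-22 and 8.55e-14), most in adipogenesis, where Sema7a was lowest, and the part of this in the 72 h values was not tested. The osteogenic call of Thy1 fell under the fold threshold with quantile normalization (-0.89). Cd44 was called higher at 3 h of osteogenesis and adipogenesis and at 12 h of osteogenesis (1.49, 1.03 and 1.003), of which the last 2 fell under the fold threshold with quantile, median-ratio or same-sum scaling and with edgeR, and the last also without CON replicate 1 or 2 or OS 12 h replicate 1 (0.98 to 0.99). The reason for the low values was not tested, and they limit how far a row name can be read as the whole output of its gene. In 3 libraries more tested genes lay over 2 log2 units from the mean of the other samples of the group than in the other 27 libraries, where 0 to 13 did. They were AD 72 h replicate 3 with 74 such genes, AD 12 h replicate 1 with 24 and OS 3 h replicate 3 with 18.

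Gldn was barely detected before induction and stood far higher in osteogenesis and chondrogenesis, but little higher in adipogenesis. At 0 h the samples had 1.86, 1.11 and 1.67 CPM, which were 8 to 13 reads. At 3 h of osteogenesis they had 291, 300.5 and 290.1 CPM, and at 12 h 137, 137 and 135 CPM. At 72 h of osteogenesis they had 22.2, 18.1 and 20.2 CPM, still above every sample of 0 h. The osteogenic samples thus stood highest at 3 h and stepped down at 12 and 72 h without overlap between times. At 3 h of chondrogenesis Gldn had 235, 241 and 227 CPM, followed by 179, 181 and 168 CPM at 12 h. At 72 h of chondrogenesis 5.39, 9.51 and 6.0 CPM were left, far below 12 h and above 0 h. In adipogenesis the 3 h samples had 6.30, 8.81 and 6.25 CPM, none of which reached the lowest osteogenic or chondrogenic sample of that time. The 12 h samples of adipogenesis had 4.10, 3.13 and 1.85 CPM, the lowest of them within the range of 0 h. At 72 h the adipogenic samples had 7.83, 7.63 and 0.475 CPM, the last being 3 reads in replicate 3, the library with the most deviating genes.

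As ratios of group means to 0 h, Gldn stood at 190 at 3 h, 88.1 at 12 h and 13.0 at 72 h of osteogenesis. For chondrogenesis these ratios were 151, 114 and 4.50, and for adipogenesis 4.60, 1.95 and 3.43. Fitted on log2(CPM + 1), a scale that compresses changes of genes with few reads, the differences from 0 h were 6.87 at 3 h and 5.76 at 12 h of osteogenesis (SE 0.37 each). Chondrogenesis gave 6.54 and 6.13 and adipogenesis 1.67 and 0.63, with the same SE. Among the 4363 tested genes Gldn had the highest fitted difference at 3 and at 12 h of osteogenesis, rank 4 and 3 in chondrogenesis, and rank 197 and 796 in adipogenesis, ranks that took part in the choice of the gene.

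Sema7a was detected before induction and stood higher at 3 h in all 3 lineages, then was back near or below that level at 12 h in osteogenesis and adipogenesis and still high in chondrogenesis. At 0 h the samples had 12.3, 9.47 and 7.58 CPM. At 3 h of chondrogenesis they had 1255, 1330.0 and 1184 CPM, the highest of any group. At 12 h of chondrogenesis they had 496, 561 and 479 CPM, and at 72 h 220.0, 208 and 200.1 CPM. The chondrogenic samples stepped down with time, and even the lowest stood far above 0 h. At 3 h of osteogenesis the values were 533, 503 and 878 CPM, of which the highest was replicate 3, one of the libraries with many deviating genes. At 12 h of osteogenesis Sema7a was down to 21.1, 20.6 and 18.4 CPM. At 72 h of osteogenesis it was at 40.9, 35.6 and 45.4 CPM, all above the samples of 12 h. In adipogenesis the 3 h samples had 166, 149 and 177 CPM. By 12 h of adipogenesis 2.34, 3.50 and 3.52 CPM were left and by 72 h 1.96, 1.60 and 1.74 CPM, all below the lowest sample of 0 h.

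The ratios of the Sema7a group means to 0 h in order of time were 65.2, 2.05 and 4.15 for osteogenesis. Adipogenesis had 16.8, 0.318 and 0.180, and chondrogenesis 128, 52.3 and 21.4. The fitted differences from 0 h on the log2(CPM + 1) scale (SE 0.17) were 5.86 and 0.99 at 3 and 12 h of osteogenesis, 3.96 and -1.38 in adipogenesis, and 6.89 and 5.59 in chondrogenesis. By this measure Sema7a stood at rank 2 of the tested genes at 3 h of osteogenesis and of chondrogenesis and at rank 4 in adipogenesis, again values that took part in the choice. Leaving out replicate 3 of OS 3 h gave a Sema7a difference of 5.61. Over all tested genes, the share past the threshold (a log2 difference of at least 1 in size and an adjusted p under 0.05) against 0 h at 3 h was 18.4% for osteogenesis, 18.8% for adipogenesis and 18.0% for chondrogenesis. At 12 h, in the same order, it was 21.8%, 13.7% and 14.4%.

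**Figure D1:**
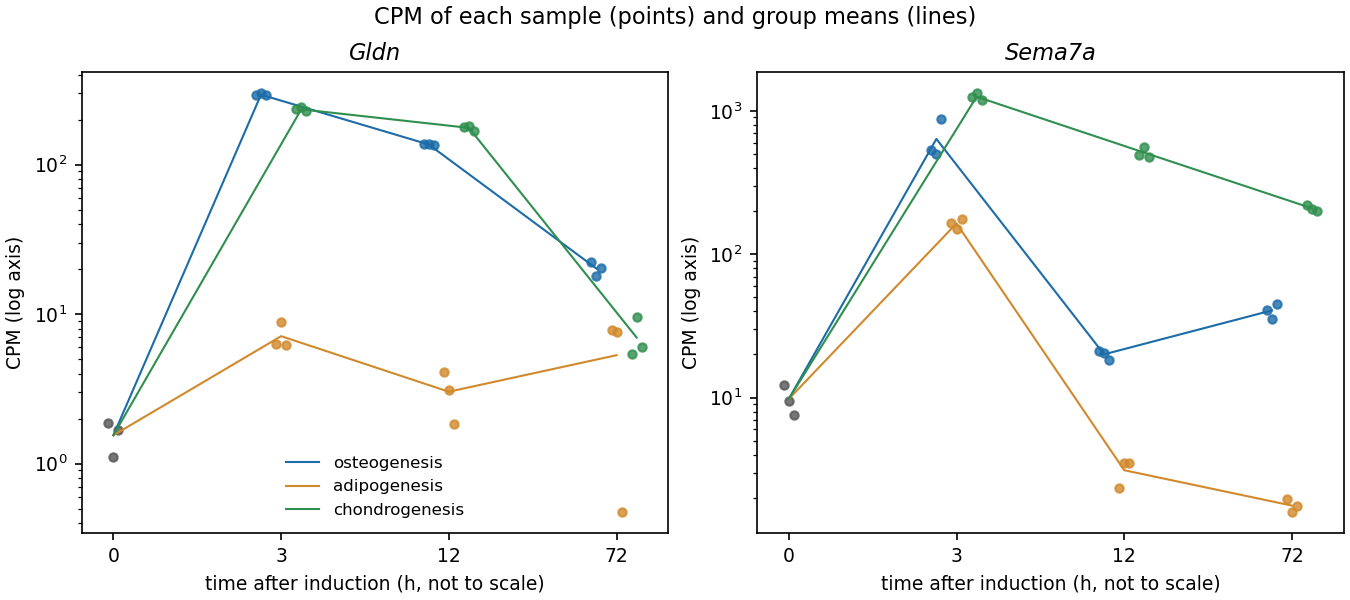
CPM on a log axis against time after induction (h, not to scale) for Gldn (left) and Sema7a (right), with a point for each of 3 samples, set slightly apart sideways, and lines through the group means of osteogenesis, adipogenesis and chondrogenesis. Gldn peaked at 3 h at 294 ± 5.85 CPM in osteogenesis and 234 ± 7.15 CPM in chondrogenesis against 7.12 ± 1.47 CPM in adipogenesis (mean ± SD, n = 3), and Sema7a peaked at 3 h in every lineage.

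The order of the groups by mean differed between the genes. For Gldn it ran from OS 3 h (294 ± 5.85 CPM, mean ± SD, n = 3) through CH 3 h (234 ± 7.15), CH 12 h (176 ± 6.82), OS 12 h (136 ± 1.09) and OS 72 h (20.2 ± 2.07) to the remaining groups, with no overlap of samples between these neighbours. The last groups, AD 3 h (7.12 ± 1.47), CH 72 h (6.97 ± 2.22), AD 72 h (5.31 ± 4.19), AD 12 h (3.03 ± 1.13) and 0 h (1.55 ± 0.388), each overlapped the next. For Sema7a it ran CH 3 h (1256 ± 73.1 CPM), OS 3 h (638 ± 208), CH 12 h (512 ± 43.2), CH 72 h (209 ± 10.03), AD 3 h (164 ± 14.1), OS 72 h (40.6 ± 4.89), OS 12 h (20.1 ± 1.42), 0 h (9.79 ± 2.38), AD 12 h (3.12 ± 0.674) and AD 72 h (1.77 ± 0.182). Only OS 3 h and CH 12 h overlapped there.

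The share of the 3 h mean that was left describes how fast each gene came down. At 12 h Gldn kept 46.4% in osteogenesis, 75.1% in chondrogenesis and 42.5% in adipogenesis. Sema7a kept 3.14% in osteogenesis and 1.90% in adipogenesis but 40.7% in chondrogenesis. At 72 h Gldn was at 6.87% in osteogenesis and 2.97% in chondrogenesis, while Sema7a was at 6.36% and 16.7%. In adipogenesis at 72 h Gldn was at 74.6% of its low 3 h mean and Sema7a at 1.08%. The fitted differences from 3 to 12 h, with no test because the choice used both times, were -1.10, -1.04 and -0.41 for Gldn in osteogenesis, adipogenesis and chondrogenesis and -4.88, -5.34 and -1.30 for Sema7a.

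At 72 h the differences from 0 h are given without p as well, because the 0 h samples took part in the choice of the genes. In osteogenesis the fitted difference was 3.06 for Gldn (SE 0.37) and 1.96 for Sema7a (SE 0.17), and in chondrogenesis 1.62 and 4.31. In all 4 cases the samples stood above every sample of 0 h. In adipogenesis Sema7a had -1.94, with every sample below 0 h, and Gldn 0.93 (95% interval 0.18 to 1.68). Without AD 72 h replicate 3 the Gldn difference was 1.79, and the spread estimated for Gldn, which all its comparisons share, includes that library. Over all tested genes the share past the threshold against 0 h was 12.5%, 15.3% and 18.0% at 72 h in the order OS, AD and CH.

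The differences from 12 to 72 h are given without p, because the 12 h level took part in the choice of the genes and a choice for high values favours a later fall. In chondrogenesis the fitted difference was -4.51 for Gldn (SE 0.37) and -1.28 for Sema7a (SE 0.17), and the samples of the times did not overlap. In osteogenesis it was -2.70 for Gldn and 0.98 for Sema7a, again without overlap, so that Sema7a stood higher at 72 h than at 12 h there. In adipogenesis the Gldn samples overlapped, with a difference of 0.30 (95% interval -0.45 to 1.05), and Sema7a had -0.56 (95% interval -0.90 to -0.22). Without AD 72 h replicate 3 the Gldn difference was 1.16, and without replicate 1 or 2 it was -0.13 or -0.12. Over all tested genes the share past the threshold from 12 to 72 h was 23.2% in osteogenesis, 16.0% in adipogenesis and 13.2% in chondrogenesis.

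Set against each other, the changes from 12 to 72 h differed between osteogenesis and adipogenesis by -3.00 for Gldn (SE 0.52) and 1.54 for Sema7a (SE 0.24). Between osteogenesis and chondrogenesis the values were 1.81 for Gldn and 2.26 for Sema7a, which means that the change in chondrogenesis was the more negative one for both genes. Between chondrogenesis and adipogenesis they were -4.81 for Gldn and -0.72 for Sema7a. These values rest on the same 12 h samples and are a description too. Of all tested genes 24.1%, 33.2% and 28.7% had an adjusted p under 0.05 for the 3 pairs in this order.

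The lineages were then set side by side at the same time points, in the same limma model. The 3 and 12 h samples are those whose high values chose the genes, so their differences between lineages are given as a description with their SE and no p. At 3 h the Gldn level in osteogenesis lay above that in adipogenesis by a log2 difference of 5.20 (SE 0.37), and the chondrogenic level lay above the adipogenic one by 4.87 (SE 0.37). Between osteogenesis and chondrogenesis the samples did not overlap, with a difference of 0.32 (95% interval -0.42 to 1.07). For Sema7a at 3 h the difference was 1.91 (SE 0.17) between osteogenesis and adipogenesis and 2.93 (SE 0.17) between chondrogenesis and adipogenesis. Osteogenesis minus chondrogenesis was -1.02 (SE 0.17) for Sema7a, and -1.27 to -0.87 when 1 replicate at a time was left out.

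At 12 h the Gldn difference was 5.13 (SE 0.37) between osteogenesis and adipogenesis and 5.50 (SE 0.37) between chondrogenesis and adipogenesis. Osteogenesis minus chondrogenesis was -0.37 (95% interval -1.12 to 0.38), again without overlap of the samples. For Sema7a at 12 h no lineage overlapped another. Its differences were 6.97 between chondrogenesis and adipogenesis, 2.37 between osteogenesis and adipogenesis and -4.61 between osteogenesis and chondrogenesis (SE 0.17 each). Over all tested genes the share past the threshold at 3 h was 7.66% for osteogenesis against adipogenesis, 7.31% for osteogenesis against chondrogenesis and 9.35% for chondrogenesis against adipogenesis. At 12 h it was 13.2%, 16.0% and 13.6% for the same pairs.

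The genes were chosen for their rise at 3 and 12 h, but with earlier results of these data known. Whether those results held the 72 h values is not stated in the sources used here. The p-values at 72 h therefore describe the spread between these samples and are no independent test. At 72 h Sema7a differed between all lineages. Chondrogenesis stood above adipogenesis by 6.25 (SE 0.17, adjusted p = 3.77e-23, 25.5% of genes called) and osteogenesis above adipogenesis by 3.91 (SE 0.17, adjusted p = 3.22e-17, 13.7% called). Osteogenesis differed from chondrogenesis by -2.34 (SE 0.17, adjusted p = 7.75e-13, 19.6% called). Gldn at 72 h was higher in osteogenesis than in chondrogenesis by 1.44 (SE 0.37, adjusted p = 0.00202), the reverse of the order of Sema7a. It was higher in osteogenesis than in adipogenesis by 2.13 (SE 0.37, adjusted p = 2.69e-05), or by 1.27 without AD 72 h replicate 3 (adjusted p = 8.3e-06), and the call was lost in a fit of those 6 samples (adjusted p = 0.0848). Chondrogenesis against adipogenesis was not called for Gldn at 0.69 (95% interval -0.06 to 1.44, adjusted p = 0.123), and each sample of AD 72 h decided the call or the sign. It was -0.17 without replicate 3 (adjusted p = 0.536), and 1.12 and 1.11 and called without replicate 1 or 2 (adjusted p = 0.014 and 0.0155).

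**Figure D2:**
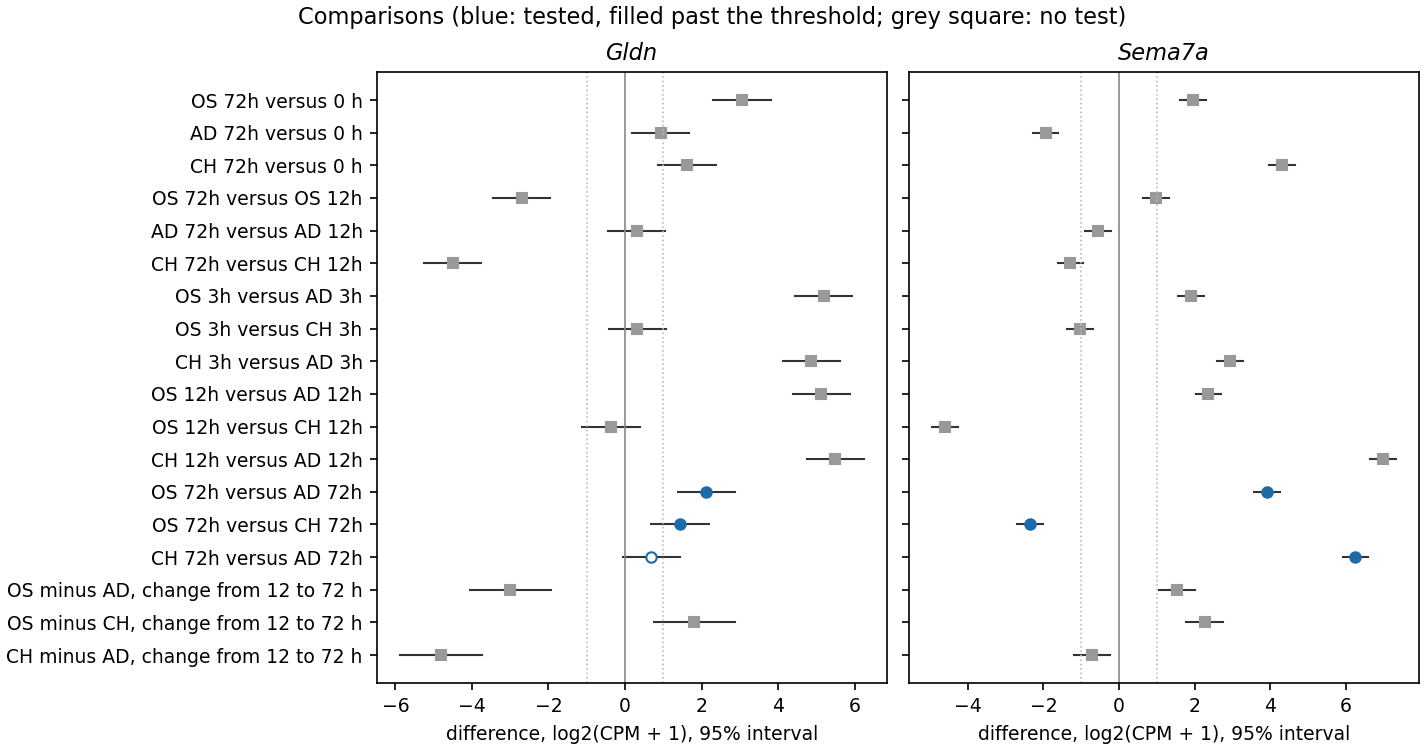
Differences on the log2(CPM + 1) scale with 95% intervals for Gldn (left) and Sema7a (right), blue for the 3 tested comparisons of lineages at 72 h (filled where past the threshold), grey squares for the 15 comparisons that rest on the 0, 3 or 12 h samples and are given without a test, and dotted lines at differences of -1 and 1. At 72 h Sema7a was called between every pair of lineages and Gldn between osteogenesis and each of the others.

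The other genes of the 2 protein families and pathways were taken from lists of 66 names, of which 39 were in the files and 20 were tested. Against 0 h, 3 of the 20 were called at 3 h of osteogenesis, 2 in adipogenesis and 3 in chondrogenesis, where 18.4%, 18.8% and 18.0% of all tested genes were called. At 12 h 4, 4 and 2 of the 20 were called, next to 21.8%, 13.7% and 14.4% of all tested genes. At 72 h 5 were called in osteogenesis, 8 in adipogenesis and 5 in chondrogenesis, next to 12.5%, 15.3% and 18.0% of all tested genes. The counts at 3 and 12 h moved by more than 1.5 times with the settings, at 3 h to 6, 4 and 7 with a pseudocount of 0.1. At 12 h they ran from 2 (without CON replicate 3 or OS 12 h replicate 3) to 8 (pseudocount of 0.1 or edgeR) in osteogenesis, to 7 without AD 12 h replicate 1 in adipogenesis, and to 0 without CH 12 h replicate 2 in chondrogenesis. The median log2 difference over the 20 genes ran from -0.10 to 0.40 over the comparisons with 0 h, next to -0.05 to 0.21 over all tested genes. At 3 h the highest fitted difference from 0 h among the 20 was 1.56 in osteogenesis (Plxna2), 2.39 in adipogenesis (Plxnc1) and 1.87 in chondrogenesis (Olfm2). Gldn had 6.87, 1.67 and 6.54 and Sema7a 5.86, 3.96 and 6.89, values that took part in the choice of the 2 genes.

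Of 13 other semaphorins in the files 7 were tested, and they are guidance cues that are secreted (Sema3 genes) or membrane bound. Sema3e, which signals through a plexin in blood vessels, was higher at 3 h of osteogenesis and of chondrogenesis, at 35.3 ± 8.11 and 35.9 ± 0.235 CPM against 16.3 ± 1.68 CPM at 0 h (log2 difference 1.05 and 1.10, adjusted p = 0.000751 and 0.000455). Both calls fell under the fold threshold with quantile, median-ratio or same-sum scaling and with edgeR, and the osteogenic one also without CON replicate 3 or OS 3 h replicate 1 or 2 (0.92 to 0.98). It was higher still at 12 h of osteogenesis, at 55.2 ± 5.79 CPM (1.70, adjusted p = 8.24e-07). Sema3a, a repellent cue of axons, had 1.24 ± 0.421 CPM at 0 h and 0 reads in all samples of 3 h of osteogenesis, at least 2.74-fold lower when set against 3 reads in each library. At 72 h of osteogenesis 4 of the 7 were called higher, namely Sema3d, Sema3e, Sema5a and Sema6d, where 12.5% of all tested genes were called in either direction. The call of Sema5a was lost without CON replicate 3, OS 72 h replicate 2 or OS 72 h replicate 3 (adjusted p = 0.0784, 0.0584 and 0.0832). Sema6d, which is membrane bound, had 5.02 ± 1.38 CPM there and 13.7 ± 2.89 CPM at 72 h of adipogenesis against 1.20 ± 0.0544 CPM at 0 h (log2 difference 1.42 and 2.71, adjusted p = 0.000234 and 4.83e-09). Sema3c, a secreted semaphorin, fell from 4556 ± 108 CPM to 1098 ± 744 CPM at 72 h of adipogenesis and 853 ± 30.8 CPM at 72 h of chondrogenesis (log2 difference -2.47 and -2.42, adjusted p = 2.96e-06 and 3.34e-06). The adipogenic difference was -1.58 without AD 72 h replicate 3 (adjusted p = 9.8e-09), whose value was 239 CPM. In a fit of the compared groups only, the adipogenic call of Sema3c was lost (adjusted p = 0.0622).

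Among the receptors, Plxnc1, the plexin that binds the Sema7a protein, was listed at 0 CPM in all samples of 0 h and had 3.54 to 5.51 CPM at 3 h of adipogenesis. Against the floor of 3 reads in each library this was at least 9.91-fold higher. It was at most 1.11 CPM at 3 h of osteogenesis and 0.983 CPM at 3 h of chondrogenesis, the lineages in which Sema7a was highest. There its log2 differences from 0 h were 0.71 and 0.68, under the fold threshold (adjusted p = 0.0334 and 0.0402). At 12 h of adipogenesis Plxnc1 was called higher as well (1.55, adjusted p = 2.63e-05). Itgb1, the integrin chain through which Sema7a signals, was abundant in every group, with 7729.6 ± 452 CPM at 0 h and 14553 ± 1472 CPM at 3 h of osteogenesis, where its log2 difference of 0.91 was under the fold threshold (adjusted p = 3.09e-07). At 72 h of adipogenesis, where Sema7a was lowest, Itgb1, Cfl1 (cofilin, which severs actin filaments) and Mapk3 (a MAP kinase of the relay) were the 3 of 5 receptor and relay genes called, all lower, by log2 differences of -1.03, -1.17 and -1.13 (adjusted p = 4.21e-08, 1.86e-08 and 3.77e-07). Without AD 72 h replicate 3 they were -0.94, -0.98 and -0.89, under the fold threshold, as they also were with quantile, median-ratio and same-sum scaling. Of all tested genes 15.3% were called there, 270 higher and 396 lower. That split was 383 and 352 with median-ratio scaling and 417 and 335 with the same sum over the listed genes, and the median of all genes went from -0.05 to 0.07 and 0.11. The count over the 20 listed genes was 8, 7 with either scaling, and 5 without AD 72 h replicate 3. Plxna2, a receptor for class 3 and class 6 semaphorins, had 47.0 ± 9.16 CPM at 3 h of osteogenesis against 15.2 ± 2.33 CPM at 0 h (1.56, adjusted p = 3.59e-06), and 3.42 ± 1.50 CPM at 72 h of adipogenesis (-1.93, adjusted p = 1.43e-07).

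On the side of gliomedin, 8 genes with an olfactomedin domain were in the files and 5 were tested. At 72 h of chondrogenesis 4 of the 5 were called higher, with a median log2 difference of 1.63, next to 18.0% of all tested genes called in either direction and their median of 0.01. Olfm2, a secreted olfactomedin, had 6.80 ± 0.875 CPM there and already 4.38 ± 0.591 CPM at 3 h against 0.486 ± 0.314 CPM at 0 h (log2 difference 2.41 and 1.87, adjusted p = 2.88e-08 and 2.19e-06). Olfml2b had 6.72 ± 0.268 CPM at 72 h against 0.583 ± 0.170 CPM (2.29, adjusted p = 2.09e-08), and Olfml3 3263 ± 341 against 1048 ± 28.5 CPM (1.63, adjusted p = 1.53e-13). Gldn itself had its lowest chondrogenic mean after induction at that time. Of the genes that work with gliomedin at nodes and those that process it, 5 of 11 were in the files and 2 were tested, the axonal contactin partner Cntnap1 and the spectrin gene Sptbn4. Cntnap1 was not called against 0 h in any group, and Sptbn4 was called lower at 12 h of osteogenesis (-1.16, adjusted p = 0.00236) and of adipogenesis (-1.12, adjusted p = 0.00421), from 1.99 ± 0.888 CPM at 0 h, and both calls were lost without CON replicate 3 (-0.97 and -0.94), the osteogenic one also without OS 12 h replicate 3 (-0.97). Of the 5 transmembrane collagens listed, 2 were in the files and 0 passed the filter.

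**Figure D3:**
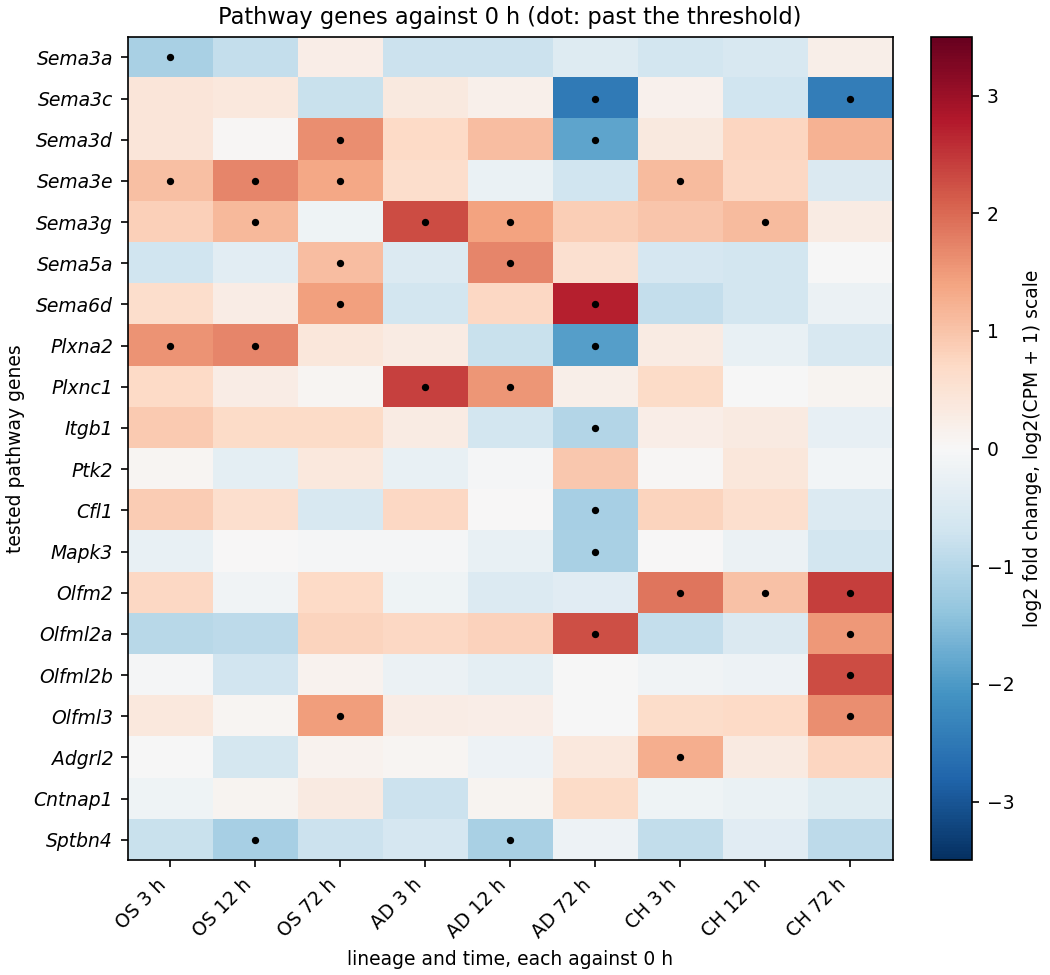
Log2 differences from 0 h on the log2(CPM + 1) scale for the 20 tested genes of the lists (rows) in each lineage and time (columns), red for higher and blue for lower, with a dot where the threshold was passed. At 3 h 3, 2 and 3 genes carry a dot in osteogenesis, adipogenesis and chondrogenesis, next to 18.4%, 18.8% and 18.0% of all tested genes. At 72 h of adipogenesis 6 of 8 dotted genes are lower, next to 15.3% of all tested genes (270 higher, 396 lower). Of these 6, Itgb1, Cfl1, Mapk3 and Sema3d (-0.60) fell under the fold threshold without AD 72 h replicate 3. Sema3d was also lost in a fit of the compared groups only (adjusted p = 0.248).

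Since both genes are known from nerve, markers of Schwann and nerve cells were read in the same samples. Of 12 listed, 8 were in the files and 2, Ngfr and Tubb3, were tested. Both were called higher than at 0 h at 3 h of all 3 lineages, where 18.4%, 18.8% and 18.0% of all tested genes were called in the order of osteogenesis, adipogenesis and chondrogenesis. Ngfr, a neurotrophin receptor gene, had 0.143 ± 0.248 CPM at 0 h and, at 3 h, 11.2 ± 1.21 CPM in osteogenesis, 11.4 ± 0.524 in adipogenesis and 4.58 ± 0.638 in chondrogenesis (log2 difference 3.44, 3.46 and 2.30, adjusted p = 2.59e-12, 2.21e-12 and 9.34e-09). Of the others, L1cam and Nefl reached 1.34 and 1.19 CPM at most, both at 3 h of adipogenesis, against 0.303 and 0 CPM at most at 0 h, and Sox10 and Gap43 reached 1 read at most and Mbp 3 reads in any sample. The sum of the list was 37.6 to 39.0 CPM at 0 h, 93.5 to 154 CPM at 3 h of osteogenesis, 133 to 152 CPM at 3 h of adipogenesis and 166 to 176 CPM at 3 h of chondrogenesis. It peaked at 435 to 491 CPM at 12 h of chondrogenesis. At 72 h it was below 0 h in osteogenesis (21.0 to 25.4 CPM) and adipogenesis (11.9 to 26.2 CPM), but not in chondrogenesis (113 to 126 CPM). Almost all of it was Tubb3, a tubulin gene, at 11.2 to 491 CPM over the samples, and the rest mostly Ngfr. Tubb3 was called lower than at 0 h at 72 h of adipogenesis (adjusted p = 6.21e-05). That call fell under the fold threshold with quantile, median-ratio or same-sum scaling and with edgeR. Without AD 72 h replicate 3 the difference was -0.67. The part of Tubb3 and Ngfr in the values of Gldn and Sema7a was not tested. The 2 leukocyte markers in the files, of 9 listed, summed to at most 2.06 CPM. Lyz2, a lysozyme gene of myeloid cells and the only tested one, was listed at 0 CPM at 0 h and called higher at 72 h of adipogenesis, at 1.24 to 2.06 CPM (log2 difference 1.35, adjusted p = 4.33e-06), the group in which Sema7a was lowest, and its part in that value was not tested. The erythroid marker Epor had at most 1.21 CPM. Of 5 endothelial markers Tek and Kdr were in the files and Tek, a receptor gene of endothelial cells, was tested. It was called higher at 3 h of osteogenesis and adipogenesis and at 72 h of osteogenesis (log2 difference 1.33, 1.68 and 2.12, adjusted p = 0.00568, 0.00065 and 6.34e-05), from 0.351 ± 0.489 CPM at 0 h to 2.47 ± 1.37, 3.19 ± 0.596 and 4.74 ± 1.27 CPM. The call at 3 h of osteogenesis was lost in a fit of the compared groups only (adjusted p = 0.0544). The sum of Tek and Kdr was 0.143 to 0.910 CPM at 0 h and at most 5.73 CPM in any sample, Kdr reached 4 reads at most, and their part in the values of Gldn and Sema7a was not tested. The chondrogenic list rested on Sox9, the cartilage regulator, which at 3 h had 603 ± 36.8 CPM in chondrogenesis, 101 ± 2.06 in osteogenesis and 17.0 ± 2.35 in adipogenesis, while Col2a1 and Acan reached 3 reads at most. The adipogenic list rested on Lpl, and the osteogenic list on Ibsp, whose sum of 202 to 320 CPM at 72 h of chondrogenesis was the highest of any group.

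Genes with a course like that of each member were found by the Pearson correlation of group means on the log2(CPM + 1) scale, as a description over 10 groups that share their libraries and depth. For Gldn the closest were Ccdc6 (r = 0.94), Exosc10 (0.93), a subunit gene of the RNA exosome, the transglutaminase gene Tgm2 (0.92) and Vav2 (0.92), which encodes a guanine nucleotide exchange factor. Ccdc6 stood at a few CPM throughout, with 1.58 at 0 h, 4.04 at 3 h of osteogenesis and 4.03 at 3 h of chondrogenesis. Tgm2 had 1.01 CPM at 0 h, 14.9 at 3 h of osteogenesis and 9.79 at 3 h of chondrogenesis, against 2.06 at 3 h of adipogenesis. Vav2 had 31.6 CPM at 0 h and 236.6 at 3 h of chondrogenesis, and 95.9 at 3 h of osteogenesis. For Sema7a the closest were Tpst2 (r = 0.94), which sulfates tyrosines of secreted proteins, Chsy1 (0.94), which makes chondroitin sulfate chains, the lysosomal sialidase gene Neu1 (0.93) and Csrp1 (0.92). Chsy1 had 231 CPM at 0 h and, at 3, 12 and 72 h, 1771, 336 and 245 CPM in osteogenesis against 1324, 1392 and 1061 CPM in chondrogenesis. The smooth muscle genes Tagln (0.90), whose protein binds actin, and Actg2 (0.89), an actin gene, were also among the 10 nearest to Sema7a. The members themselves correlated at r = 0.72 (Spearman's rank correlation 0.82), which put Sema7a at rank 230 among the genes most like Gldn.

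**Figure D4:**
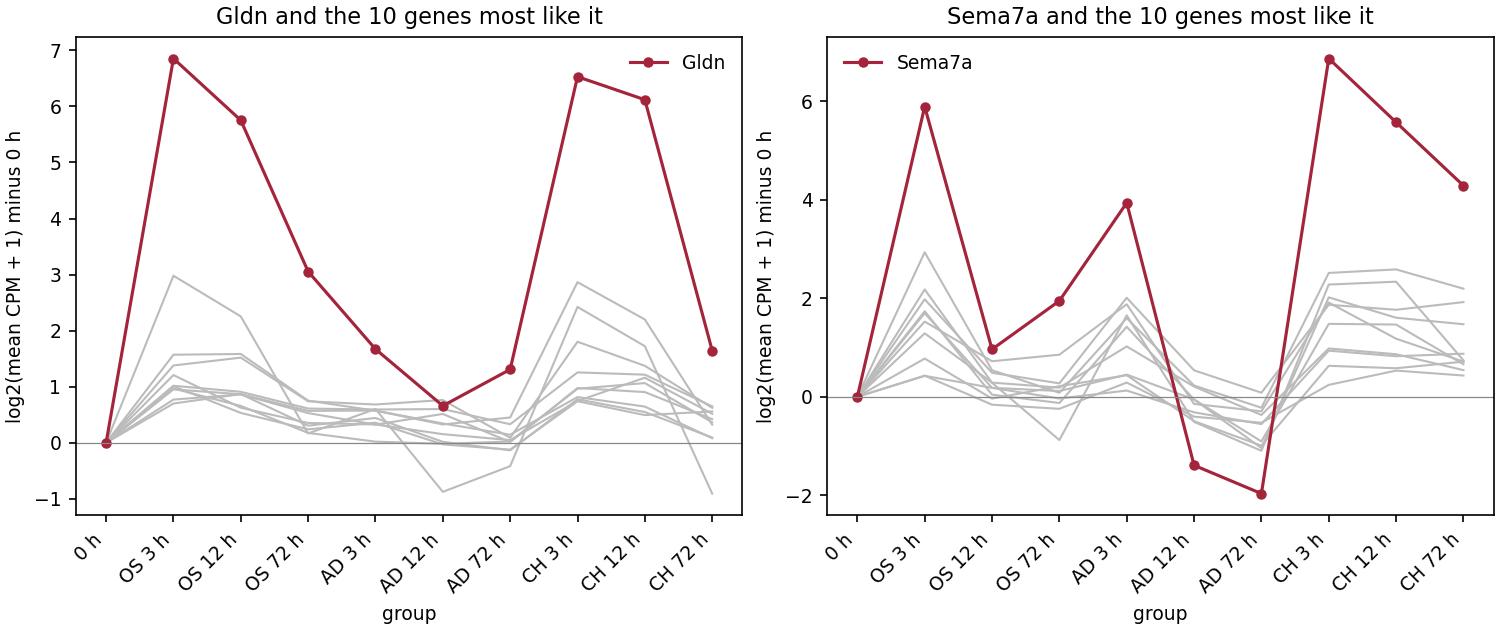
Log2(mean CPM + 1) of each group minus that of 0 h for Gldn (left, red) and Sema7a (right, red) with the 10 tested genes most correlated with each (grey). The grey genes differ less from 0 h than the member does at 3 h, and they part from it elsewhere, as Tgm2 does at 12 h of adipogenesis (0.0975 CPM against 1.01 CPM at 0 h). Gldn and Sema7a exceed 5 log2 units at 3 h of osteogenesis and chondrogenesis.

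The 5 nearest genes on each side of each member on chromosome 8 of GRCr8 were read against 0 h in the same fit. Around Gldn 3 of 10 were tested, Elmod1, Idh3a and Tnfaip8l3. At 3 h 0, 1 and 1 of the 3 were called in osteogenesis, adipogenesis and chondrogenesis, where 18.4%, 18.8% and 18.0% of all tested genes were called. The gene called was Tnfaip8l3, which was listed at 0 CPM in all samples of 0 h and of 3 h of osteogenesis. It had 4.52 CPM on average at 3 h of adipogenesis, at least 10.4-fold higher against the floor, and 1.52 CPM at 3 h of chondrogenesis (log2 difference 2.45 and 1.25, adjusted p = 1.93e-05 and 0.0177), the latter call being lost without CH 3 h replicate 2 or 3 (adjusted p = 0.0657 and 0.0965). At 12 h of osteogenesis, where 21.8% of all tested genes were called, Elmod1 and Idh3a were higher (log2 difference 1.70 and 1.14, adjusted p = 4.73e-07 and 4.03e-10), that of Idh3a not with quantile, median-ratio or same-sum scaling or edgeR. At 12 h of chondrogenesis, with 14.4% called, Elmod1 was higher (1.004, adjusted p = 0.00097). That call fell under the fold threshold at 0.89 to 0.97 without CON replicate 2 or 3 or CH 12 h replicate 1. With median-ratio or same-sum scaling it did so at 0.96. At 12 h of adipogenesis none of the 3 was called. At 72 h 0 of the 3 were called in osteogenesis, 1 in adipogenesis and 2 in chondrogenesis, next to 12.5%, 15.3% and 18.0% of all tested genes. They were Tnfaip8l3 in adipogenesis (2.41, adjusted p = 3.1e-05, and 3.34 without AD 72 h replicate 3) and Tnfaip8l3 and Elmod1 in chondrogenesis (4.41 and 1.17, adjusted p = 5.87e-10 and 0.000171). Elmod1 was at 0.99 there without CH 72 h replicate 2. In a fit of the compared groups only, the call of Tnfaip8l3 in adipogenesis was lost (adjusted p = 0.077). Around Sema7a 2 of 10 were tested, Arid3b and Islr2. At 3 h neither was called in any lineage, with differences from -0.29 to 0.60. Arid3b was called lower at 12 and 72 h of adipogenesis (-1.48 and -1.32, adjusted p = 2.21e-07 and 1.22e-06), the groups in which Sema7a stood below 0 h and in which 13.7% and 15.3% of all tested genes were called. No other comparison with 0 h was called for these 2 genes.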

How the data were processed

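Bulk RNA from rat BMSCs was sequenced in 10 groups of 3 samples. The authors deposited 1 value per row and sample under the name FPKM, but 100% of the values of each sample were whole multiples of 1 step (tolerance 0.02), so they are CPM as deposited, and reads were recovered from them. The submitters' processing notes name Trimmomatic, HISAT2 and StringTie. Genome build and counting settings are not given in the sources used here. The labels describe removal of ribosomal RNA, the paper an mRNA kit. Between 38.9 and 71.4% of a sample's total fell on the genes in its file.

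The members and lists were chosen with earlier results of these data known. Rows of the same name were summed (729 of 9999 names), while Gldn and Sema7a had 1 row each. The 4363 genes that reached 1 CPM in 3 or more samples were fitted with limma 3.58.1 in R 4.3.3 on log2(CPM + 1), 1 model of 10 groups without covariates. The threshold was an absolute log2 difference of at least 1 and a Benjamini-Hochberg adjusted p under 0.05 over all tested genes, and for interactions the adjusted p alone. This test was planned for another normalized unit and kept for CPM. Differences of the members between lineages at 3 and 12 h from 12 to 72 h and from 0 to 72 h, and the interactions, had been planned as tests and are given without p, since 0, 3 and 12 h values chose the genes. Scripts were tested on simulated data. Genes named were the 2 members, genes of the lists, the 10 most correlated genes and the 5 neighbours on each side. Replicates were compared, and each of the 30 pairs differed by more than sampling noise (chi-square per degree of freedom at least 2.42, r 0.97 to 0.99).

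Other settings were median-ratio scaling, quantile normalization, a pseudocount of 0.1, no filter, the same sum over listed genes, a fit on the compared groups only, a replicate block, each replicate left out, rows of the same name apart, and edgeR 4.0.16 (quasi-likelihood) on the recovered reads. Python 3.11.15 with matplotlib 3.10.9 drew the figures. Genes not in the files, staining and protein assays were not analysed here, and 1 listed marker is not reported here.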

Additional observations from a re-analysis of the deposited data

Results flagged for a closer look

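Between the lineages, the change from 12 to 72 h stood apart for both genes in the interaction terms of the limma model. The 12 h level took part in the choice of the genes, so these terms are no independent test and are given as values without p. For Gldn the difference was -3.00 (osteogenesis minus adipogenesis), 1.81 (osteogenesis minus chondrogenesis) and -4.81 (chondrogenesis minus adipogenesis), all on the log2(CPM + 1) scale. For Sema7a it was 1.54, 2.26 and -0.72 for the same pairs. The last of these was -0.52 with a pseudocount of 0.1, -0.50 with quantile normalization, -0.68 with edgeR, -0.58 without AD 12 h replicate 1 and -0.65 without CH 12 h replicate 2, and in none of these did it pass the threshold. The groups hold 3 samples, too few to look for single outlying samples by the rule used for larger groups. The Gldn differences that involve adipogenesis were -3.86 and -5.67 without AD 72 h replicate 3.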

How the results depend on the processing

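The limits are 3 samples a group, 1 set of 0 h samples for all lineages, a few reads for Gldn at 0 h and in adipogenesis, and a spread for Gldn that includes AD 72 h replicate 3. Under the alternatives run, no direction reversed among the differences of Gldn and Sema7a past the threshold or among the 89 calls against 0 h of listed, marker and neighbouring genes. Scaling moved the median log2 difference of all tested genes by up to 0.33, and in adipogenesis from 12 to 72 h median-ratio scaling moved the share of called genes that were higher from 32.4% to 63.0%.

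With a pseudocount of 0.1, Gldn against 0 h was 7.51 at 3 h and 6.40 at 12 h of osteogenesis and 7.18 and 6.77 in chondrogenesis. Sema7a at 12 h of adipogenesis was -1.61 against 0 h and -5.69 against 3 h, from 12 to 72 h of osteogenesis it was 1.01, and its interaction of chondrogenesis and adipogenesis was -0.52. The pathway genes called at 3 h numbered 6, 4 and 7 in osteogenesis, adipogenesis and chondrogenesis, and 8 at 12 h of osteogenesis. With quantile normalization, Sema7a was 5.62, 3.73 and 6.62 at 3 h in the same order, 0.70 at 12 h of osteogenesis, 1.22 from 12 to 72 h of osteogenesis and -0.50 in that interaction, and 6 pathway genes were called at 3 h of chondrogenesis and 5 at 72 h of adipogenesis. With median-ratio scaling, Sema7a was 5.64, 3.72 and 6.56 at 3 h, 0.67, -1.59 and 5.37 at 12 h, 1.16 from 12 to 72 h of osteogenesis and -0.92 in osteogenesis against chondrogenesis at 3 h. Gldn at 72 h of adipogenesis was 1.07, and 1 pathway gene was called at 12 h of chondrogenesis. With the same sum over the listed genes, Sema7a was 5.61 and 6.66 at 3 h of osteogenesis and chondrogenesis, 0.64 and 5.37 at 12 h, and 1.24 from 12 to 72 h of osteogenesis, Gldn at 72 h of adipogenesis was 1.10, and 1 pathway gene was called at 12 h of chondrogenesis. With edgeR on the reads, Sema7a was 6.63 at 3 h of chondrogenesis, 0.63 and -1.94 at 12 h of osteogenesis and adipogenesis, -5.13 and -5.71 from 3 to 12 h, 1.27 from 12 to 72 h of osteogenesis, -0.87 in osteogenesis against chondrogenesis at 3 h and -0.68 in the interaction of chondrogenesis and adipogenesis. Gldn was 1.83 at 72 h of adipogenesis and 1.10 from 12 h, and the pathway genes called at 3 h numbered 5, 5 and 6, and 8 at 12 h of osteogenesis. In the fit of the compared groups only, Gldn in osteogenesis against adipogenesis at 72 h was 2.13 (adjusted p = 0.0848). The cause of these shifts was not tested.

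Leaving out 1 replicate at a time, Sema7a ranged from 5.61 to 6.03 at 3 h of osteogenesis, -5.03 to -4.63 from 3 to 12 h and 0.90 to 1.07 from 12 to 72 h, -1.27 to -0.87 in osteogenesis against chondrogenesis at 3 h and -0.79 to -0.58 in the interaction of chondrogenesis and adipogenesis. Gldn ranged from 0.50 to 1.79 at 72 h of adipogenesis, -0.13 to 1.16 from 12 h (-0.12 without AD 72 h replicate 2) and -0.17 to 1.12 in chondrogenesis against adipogenesis at 72 h. The pathway genes called ranged from 2 to 5 at 3 h of osteogenesis (5 without CON replicate 1 or OS 3 h replicate 2), 3 to 5 at 3 h of chondrogenesis (5 without CON replicate 1), 2 to 4 at 12 h of osteogenesis (2 without CON replicate 3 or OS 12 h replicate 3), 3 to 7 at 12 h of adipogenesis (7 without AD 12 h replicate 1), 0 to 2 at 12 h of chondrogenesis (0 without CH 12 h replicate 2) and 5 to 8 at 72 h of adipogenesis (5 without AD 72 h replicate 3). Replicate numbers did not pair the samples, since 3 of 135 pairs of same-numbered samples correlated above 0.1 in their deviations (median -0.01). With a replicate block, Gldn in osteogenesis against chondrogenesis at 72 h stayed at 1.44 (adjusted p = 0.00133), and the block changed no call of either gene.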
